A study of Homo sapiens with 8 samples.

Results

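The genes of the platelet-derived growth factor (PDGF) system were examined in the open chromatin of a human hepatic stellate cell line. The 6 members were the ligand genes PDGFA, PDGFB, PDGFC and PDGFD and the receptor genes PDGFRA and PDGFRB, chosen by name out of 20136 protein-coding genes. For each gene, the peaks of 8 peak lists were taken from the gene body and 50 kb on each side of it. These windows held 356 peaks, which merged into 76 regions. Of these regions, 56 had peaks from at least 2 libraries and are called consensus sites, out of 75501 consensus sites in the genome.

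PDGF chains are secreted as dimers that bind receptor tyrosine kinases on mesenchymal cells. The A, B and C chains bind the alpha receptor, encoded by PDGFRA, and the B and D chains bind the beta receptor, encoded by PDGFRB. In the liver, PDGF is known as a strong mitogen for hepatic stellate cells, the pericytes that turn into matrix-producing myofibroblasts in fibrosis, and PDGFRB is a widely used marker of these cells.

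ATAC-seq, which maps the places where a transposase can insert adapters into open chromatin, was performed on wild-type LX-2 cells, an immortalised line derived from human hepatic stellate cells. The cells were grown on a soft matrix of about 2 kPa or a stiff matrix of about 40 kPa and were collected after 2 days (D2) or 4 days (D4). Each matrix had 2 replicate libraries per day, and the 4 groups are called D2 soft and D2 stiff, D4 soft and D4 stiff. All groups were of the same wild-type line, the labels name no other agent, and a line in culture lacks the neighbouring cells of the liver.

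The lists held 29789 to 72840 peaks, and the depth estimated from the lists ran from 0.779 to 3.15 fragments per kb of genome. D2 soft replicate 1 had both lowest values, and the next shortest list had 55754 peaks. The PDGF windows took a steady share of each list, between 0.0705% and 0.0801% of its peaks. The identity of the cells was checked by peaks within 1 kb of a transcription start. Of 10 stellate and myofibroblast markers, 5 (ACTA2, COL1A1, VIM, TAGLN and RGS5) had such a peak in all 8 libraries, COL1A2 had one in 7 and HAND2 in 6, while COL3A1 and LRAT had one in 1 library and DES in 0. The hepatocyte genes ALB, APOA1 and HNF4A, the leukocyte genes PTPRC and CD3E, the endothelial gene VWF and the cholangiocyte gene KRT19 had none. Other markers of those cell types did have a peak: TTR in 2 libraries, CDH5 in 4, EPCAM in 6 and CD68 in 8. PECAM1 could not be looked up, because the annotation used had no entry for it.

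Below, the regions of a window are numbered along the chromosome, so that PDGFD site 7 is the seventh region of the PDGFD window. Sequences of 7 sites are shown first because the results turn on them: the PDGFRB and PDGFD promoters, the region with the highest mean percentile at PDGFB, PDGFC and PDGFD, a second PDGFB region, and the site in the first intron of PDGFRA. All are from GRCh37 (hg19) and written 5′ to 3′. The promoters are the 200 bases before the most upstream start and are on the minus strand, the strand of both genes. The others are on the plus strand and reach 100 bases to each side of the summit of the best-ranked peak. Capitals mark the letters of the motifs searched, which were TGAGTCA or TGACTCA for AP-1, GGAATG for TEAD, GGGCGG for the GC box, CCAAT for the CCAAT box, TATAAA for the TATA box and the core of the CTCF motif, each on both strands.
PDGFRB site 8, promoter, chr5:149535436-149535635: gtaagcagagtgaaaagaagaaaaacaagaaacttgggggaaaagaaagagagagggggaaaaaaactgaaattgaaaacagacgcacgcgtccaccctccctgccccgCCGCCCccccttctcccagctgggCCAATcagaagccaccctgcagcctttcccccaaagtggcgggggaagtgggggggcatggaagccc
PDGFD site 8, promoter, chr11:104035108-104035307: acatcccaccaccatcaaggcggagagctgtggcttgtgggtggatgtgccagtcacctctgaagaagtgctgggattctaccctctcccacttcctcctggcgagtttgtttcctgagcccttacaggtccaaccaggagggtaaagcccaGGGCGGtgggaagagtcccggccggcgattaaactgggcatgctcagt
PDGFD site 7, chr11:104005603-104005803: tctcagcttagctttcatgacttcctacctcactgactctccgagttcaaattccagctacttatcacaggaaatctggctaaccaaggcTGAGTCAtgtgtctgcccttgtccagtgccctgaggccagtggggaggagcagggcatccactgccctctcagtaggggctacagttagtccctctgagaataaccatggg
PDGFC site 9, chr4:157751610-157751810: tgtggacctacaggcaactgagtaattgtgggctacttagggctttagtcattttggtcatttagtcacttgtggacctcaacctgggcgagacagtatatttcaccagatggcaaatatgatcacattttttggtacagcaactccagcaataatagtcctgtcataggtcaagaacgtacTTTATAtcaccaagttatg
PDGFB site 6, chr22:39608741-39608941: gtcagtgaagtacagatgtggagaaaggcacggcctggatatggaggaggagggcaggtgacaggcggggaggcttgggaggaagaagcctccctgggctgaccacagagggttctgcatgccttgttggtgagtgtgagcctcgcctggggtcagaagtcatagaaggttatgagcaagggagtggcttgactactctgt
PDGFB site 5, chr22:39601428-39601628: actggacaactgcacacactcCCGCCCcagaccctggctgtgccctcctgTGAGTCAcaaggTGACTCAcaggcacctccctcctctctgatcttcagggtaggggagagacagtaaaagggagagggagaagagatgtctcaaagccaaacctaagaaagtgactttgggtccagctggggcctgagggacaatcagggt
PDGFRA site 3, chr4:55099470-55099670: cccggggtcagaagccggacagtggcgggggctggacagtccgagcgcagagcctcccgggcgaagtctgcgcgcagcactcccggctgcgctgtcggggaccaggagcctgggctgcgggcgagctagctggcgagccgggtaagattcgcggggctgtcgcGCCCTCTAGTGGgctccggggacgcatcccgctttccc

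The PDGFRB promoter held a GC box at position 110 and a CCAAT box at position 134 of the printed bases, and the PDGFD promoter held a GC box at position 153. In the PDGFD intron the AP-1 letters began at position 91, close to the middle of the window. At PDGFB site 5 there were AP-1 matches at positions 51 and 63 and a GC box at 22. PDGFC site 9 held only the TATA letters, at position 183. PDGFRA site 3 held the CTCF core at position 164. PDGFB site 6 held none of these motifs in the printed bases.

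The same windows around the summit were searched at the 56 consensus sites. AP-1 letters were present at 18 sites (32.1%, against 30.2% of all consensus sites). TEAD letters were present at 10 sites (17.9%, against 19.1%), the CCAAT box at 12 (21.4%, against 24.6%), the TATA box at 7 (12.5%, against 9.10%) and the CTCF core at 2 (3.57%, against 2.12%). The GC box was present at 13 sites (23.2%, against 16.0%), and 7 of these 13 lay in the PDGFB window. The median GC content was 54.0%, against 48.3% for all sites. Among the 17 PDGF sites found in every library, AP-1 was present at 5 (29.4%, against 28.2% of all sites found in every library) and TEAD at 0 (against 18.2%). These are letter matches, and no factor binding was measured.

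Every library held a peak at 17 of the 56 sites (30.4%), against 32.1% of all consensus sites. Another 17 sites had a peak in 7 libraries, and in 16 of those 17 (94.1%) the missing library was D2 soft replicate 1. The same library was the missing one at 85.4% of all sites found in 7 libraries. The remaining 22 sites were found in 2 to 6 libraries. By position, 21 sites lay in introns of the member gene, 2 in exons and 33 outside the gene, and 8 were within 1 kb of an annotated start of the member.

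To compare strength within a list, each peak was given a percentile, the share of that list's peaks with a fold enrichment no higher than its own. Fold enrichment is the pileup of fragments at the summit over the local background. The lists differ in length, so a percentile is not directly comparable between libraries. The mean percentile over the libraries with a peak had a median of 42.2 over the 56 sites, against 43.7 over all consensus sites. It was over 75 at 12 sites (21.4%, against 17.0%), and these 12 lay in the windows of PDGFB (5 sites), PDGFC (5) and PDGFD (2). The regions, their distances and their strengths are shown in the map of the 6 windows.

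**Figure D1:**
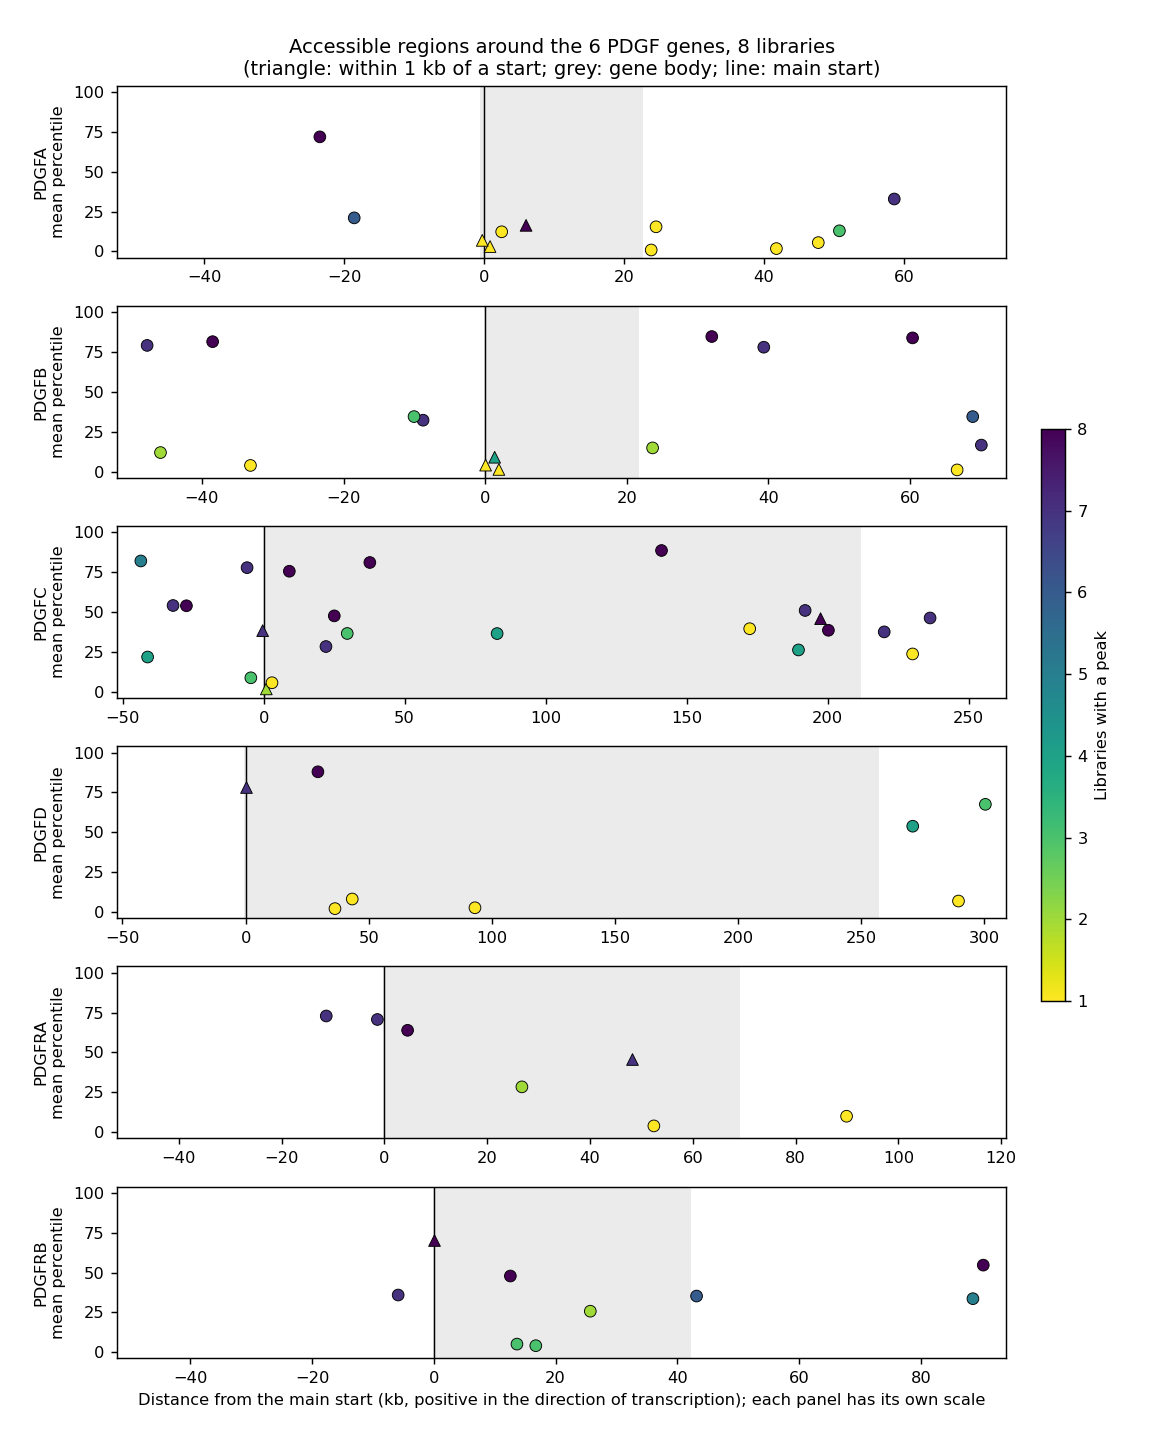
Regions with peaks in the 6 PDGF gene windows. The x axis gives the distance of the region's centre from the main start of the gene in kb, positive in the direction of transcription, and the y axis the mean percentile of fold enrichment over the libraries with a peak. Colour gives the number of libraries (1 to 8), triangles mark regions within 1 kb of an annotated start, and grey the gene body. PDGFRB is the only gene with a triangle of 8 libraries (the darkest colour) at its main start, and PDGFD has 4 consensus sites over the longest window.

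The density of sites differed widely between the genes. PDGFB had 12 consensus sites, or 9.87 per 100 kb, which placed its window at the 97.1 percentile of all protein-coding gene windows. PDGFC had 21 sites (6.74 per 100 kb, percentile 82.6) and PDGFRB had 9 (6.34, percentile 79.3). PDGFA had 5 (4.06, percentile 52.0) and PDGFRA had 5 (2.96, percentile 34.9). PDGFD had 4 sites in the largest window, or 1.12 per 100 kb, at percentile 12.2. Parts of 4 windows belong to other protein-coding genes as well: the PDGFRB window holds CSF1R, CDX1 and SLC6A7, the PDGFA window PRKAR1B, the PDGFD window DDI1, and the PDGFRA window ENSG00000282278, which overlaps the 5 consensus sites there.

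The first question was whether the promoter of each gene was open. A main start, the start of the canonical transcript, was called open in a library if the centre of a merged region with a peak of that library lay within 1 kb. Over 19856 protein-coding genes, 42.2% of main starts were open in all 8 libraries, 11.8% in 7 and 33.6% in 0. Among the PDGF genes the number of libraries was 8 for PDGFRB, 7 for PDGFC, 7 for PDGFD, 2 for PDGFA, 1 for PDGFB and 0 for PDGFRA. By this rule, the main starts open in at least 7 libraries were those of the beta receptor and of the C and D chains. Within 1 kb of any annotated start, the number was 8 for PDGFA, PDGFC and PDGFRB, 7 for PDGFD and PDGFRA and 4 for PDGFB. By any start, 47.6% of the 19856 genes were open in all 8 libraries.

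PDGFA (chr7:536895-559933, minus strand) encodes the A chain, which signals through the alpha receptor. Its main start had 1 weak region in D4 stiff replicate 1, at percentile 3.05, and another in D4 stiff replicate 2, at percentile 6.94. Both regions lay near the bottom of their lists and did not overlap each other. The promoter region found in every library was PDGFA site 7 (chr7:553063-553918), in intron 2 near an internal start, 5993 bp downstream of the main one. Its percentiles were 18.4 and 19.9 in the D2 soft pair (replicates 1 and 2, in this order throughout), 5.81 and 31.1 in the D2 stiff pair, 3.17 and 39.6 in the D4 soft pair and 3.88 and 9.05 in the D4 stiff pair. The replicates lay far apart in D2 stiff and D4 soft, and no value reached the middle of its list. The strongest region of the window was PDGFA site 12 (chr7:582542-583358), with its centre at -23467 bp from the main start, on the upstream side. Its percentiles were 82.0 and 72.5 in the D2 soft pair, 55.2 and 68.3 in the D2 stiff pair, 83.1 and 80.5 in the D4 soft pair and 66.5 and 67.3 in the D4 stiff pair, so that every soft library stood above every stiff library.

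PDGFB (chr22:39619364-39640987, minus strand) encodes the B chain, which binds both receptors. A peak near its main start was called in 1 library, D2 stiff replicate 2, at percentile 4.04. PDGFB site 9 in intron 1, near another start, was found in 4 libraries at percentiles of 3.89 to 14.7. The promoter thus had a weak peak or none, and 11 of the 12 consensus sites lay outside the gene. PDGFB site 6 (chr22:39608725-39609185), 32032 bp from the main start and downstream of the gene, had percentiles of 60.3 and 93.1 in the D2 soft pair, 87.5 and 89.1 in the D2 stiff pair, 79.0 and 77.9 in the D4 soft pair and 94.6 and 96.8 in the D4 stiff pair. On D4 the stiff libraries stood above the soft ones, while on D2 they overlapped. PDGFB site 4 and PDGFB site 14, also outside the gene and in every library, had percentiles of 77.0 to 95.02 and 76.7 to 86.9. PDGFB site 5, which holds the pair of AP-1 matches, was absent from D2 soft replicate 1 and had percentiles of 59.4 to 90.7 in the other 7 libraries.

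PDGFC (chr4:157681606-157892951, minus strand) encodes the C chain, a latent growth factor activated by proteolysis. Its main start had PDGFC site 18 (chr4:157892890-157893707) in 7 libraries. The percentile was 35.1 in D2 soft replicate 2, 69.0 and 8.99 in the D2 stiff pair, 33.7 and 20.4 in the D4 soft pair and 46.2 and 55.2 in the D4 stiff pair. The difference between the D2 stiff replicates spanned the values of all other libraries. By −log10 p instead of fold enrichment, the mean percentile of this promoter was 58.2 in place of 38.4. The internal start in intron 3 had PDGFC site 5 in every library, at percentiles of 27.3 to 62.9. An exon 1 region, PDGFC site 17, was found in 2 libraries at percentiles of 3.03 and 0.476.

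The strongest region of the PDGFC window was PDGFC site 9 (chr4:157751432-157752259) in intron 2, 141106 bp from the main start. Its percentiles were 72.3 and 86.6 in the D2 soft pair, 94.0 and 90.4 in the D2 stiff pair, 84.8 and 89.4 in the D4 soft pair and 93.6 and 98.3 in the D4 stiff pair. Every stiff library stood above every soft library. The window held 11 intronic consensus sites in all, the most of the 6 genes.

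PDGFD (chr11:103777917-104035107, minus strand) encodes the D chain, which is also activated by proteolysis and binds the beta receptor. Its promoter, PDGFD site 8 (chr11:104034279-104035450), had a centre 11 bp from the main start and was called in 7 libraries. The percentile was 65.4 in D2 soft replicate 2, 71.7 and 81.3 in the D2 stiff pair, 86.4 and 89.5 in the D4 soft pair and 72.9 and 83.1 in the D4 stiff pair. Among the libraries with a peak, the D4 soft ones stood highest. In D2 soft replicate 1, the least deep library, no peak was called there.

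PDGFD site 7 (chr11:104004962-104006027) in intron 1 was the other strong region of this window, 29381 bp from the main start. The summit pileup, recovered from the fold enrichment and p-value, was 9 and 24 fragments in D2 soft, 24 and 33 in the D2 stiff pair, 41 and 31 in the D4 soft pair and 39 and 42 in the D4 stiff pair. Its percentile was 51.4 and 78.1 in the D2 soft pair, 94.8 and 96.4 in the D2 stiff pair, 97.9 and 95.3 in the D4 soft pair and 91.4 and 98.4 in the D4 stiff pair. Both D2 soft libraries stood below all others.

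PDGFRA (chr4:55095447-55164412, plus strand) encodes the alpha receptor. No region had its centre within 1 kb of the main start. The nearest was PDGFRA site 2 (chr4:55093684-55094512), with its centre at -1362 bp and its nearest edge 948 bp away. Its percentile was 61.9 in D2 soft replicate 2, 29.6 and 81.8 in the D2 stiff pair, 82.6 and 89.8 in the D4 soft pair and 69.6 and 79.2 in the D4 stiff pair, with no peak in D2 soft replicate 1. With a distance of 2 kb this site would count, and PDGFRA would have an open promoter in 7 libraries. An internal start in intron 13 had PDGFRA site 5 in 7 libraries, at percentiles of 26.9 to 67.4.

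PDGFRA site 3 (chr4:55099118-55100832) in intron 1 was the site of the window found in every library. Its percentiles were 46.9 and 70.1 in the D2 soft pair, 78.3 and 82.7 in the D2 stiff pair, 63.4 and 40.3 in the D4 soft pair and 62.6 and 66.6 in the D4 stiff pair. The stiff libraries stood above the soft ones on D2 and overlapped with them on D4. PDGFRA site 1 (chr4:55083821-55084474), at -11313 bp, was the best-ranked distal site and had percentiles of 52.6 to 90.0 in 7 libraries.

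PDGFRB (chr5:149493402-149535435, minus strand) encodes the beta receptor and was the one member with an open main start in every library. PDGFRB site 8 (chr5:149534998-149535841) had its centre 11 bp upstream of the main start. Its pileup, not corrected for depth, was 11 and 21 fragments in D2 soft, 21 and 25 in the D2 stiff pair, 27 and 27 in the D4 soft pair and 45 and 29 in the D4 stiff pair. The percentile was 54.4 and 57.3 in the D2 soft pair, 76.8 and 68.0 in the D2 stiff pair, 80.3 and 81.1 in the D4 soft pair and 81.4 and 64.6 in the D4 stiff pair. The D2 soft libraries held the lowest values, and the D4 soft libraries lay within the range of the stiff ones. These percentiles come from lists of unequal length. Among the 24246 sites in every library, D2 soft replicate 1 (45.1) stood above replicate 2 of D2 stiff (41.4) and D4 stiff (31.4). D2 soft replicate 2 (30.4) was the lowest, and D4 soft replicate 2 (63.8) stood above every stiff library. By −log10 p the mean percentile was 71.3, against 70.5 by fold enrichment.

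The distal region with the highest mean percentile in the PDGFRB window, PDGFRB site 1 (chr5:149444564-149445773), lay in CSF1R. Its percentiles were 43.1 and 54.2 in the D2 soft pair, 71.1 and 77.5 in the D2 stiff pair, 73.3 and 15.5 in the D4 soft pair and 45.2 and 57.2 in the D4 stiff pair. The D4 soft replicates spanned all other libraries except D2 stiff replicate 2.

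The promoters whose rank changed most like that of the PDGFRB promoter over the 8 libraries were those of ITGBL1 (Pearson's r = 0.961) and PDCD6IP (r = 0.946), out of 9357 genes compared. For PDGFA site 7 they were TMTC4 (r = 0.953) and THEGL (r = 0.944). These values describe likeness over 8 libraries, whose differences in depth and matrix all the promoters share. They are the highest of 9357 values over 8 libraries each, and how high such a maximum runs by chance was not tested.

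**Figure D2:**
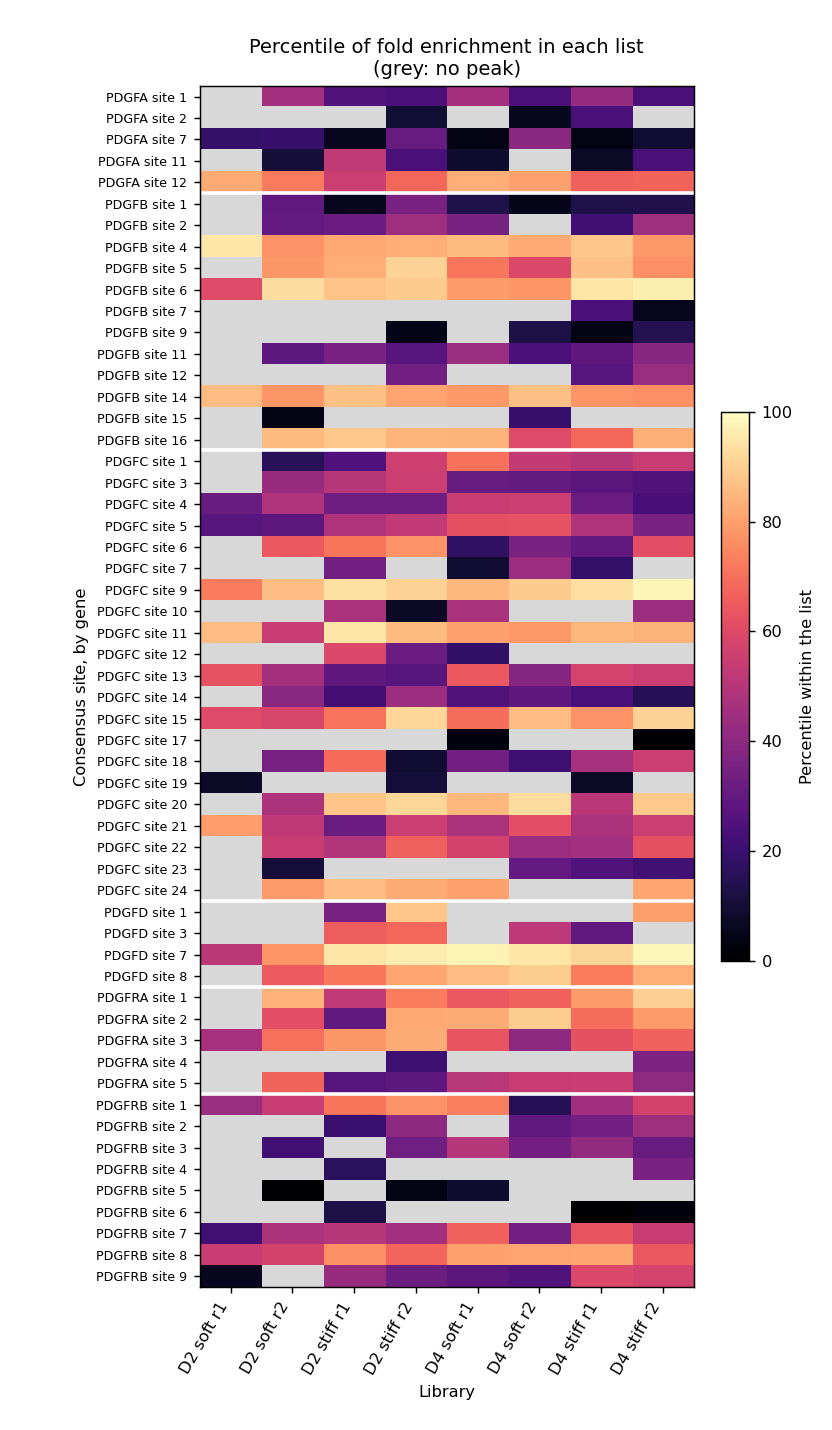
Percentile of fold enrichment within each list (colour, 0 to 100) at the 56 consensus sites (y axis, by gene) in the 8 libraries (x axis). Grey cells have no peak. The column of D2 soft replicate 1 has more grey cells than any other, and PDGFD site 7, PDGFC site 9 and PDGFB site 6 are among the brightest entries.

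The next question was whether sites were present on one matrix and not on the other. On D2, 5 of the 56 sites had a peak in both stiff libraries and in neither soft library, against 7.45% of all consensus sites. The reverse held for 0 sites, against 0.391% of all. The 5 sites were PDGFC site 10 and PDGFC site 12 in intron 1, PDGFD site 1 and PDGFD site 3 downstream of the gene, and PDGFRB site 2 inside the neighbouring gene CSF1R. Each of them also had a peak in at least 1 D4 library, at D4 percentiles of 18.3 to 79.8.

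On D4, 3 of the 56 sites had a peak in both stiff libraries and in neither soft library, against 6.72% of all consensus sites, and the reverse held for 0 sites, against 1.31%. The 3 sites were PDGFB site 7 (percentiles 24.2 and 5.53 in D4 stiff), PDGFB site 12 (27.2 and 43.1) and PDGFRB site 6 (0.115 and 2.12). They ranked in the lower part of their lists, and PDGFRB site 6 ranked at the bottom. No site was found in every stiff and no soft library, against 0.85% of all, or in every soft and no stiff library, against 0.0172%.

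Between the days, 1 site (PDGFC site 7) was found in both D4 soft and neither D2 soft library, against 5.79% of all consensus sites, and 0 sites the other way, against 0.403%. On the stiff matrix, 2 sites (PDGFB site 7 and PDGFC site 23) were found in D4 and not in D2, against 5.35%, and 1 site (PDGFC site 12) in D2 and not in D4, against 1.41%. With 2 libraries against 2 no permutation test can pass a threshold of 0.05, and these counts have no p-value.

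The lists differed in length between the groups. More stiff than soft libraries had a peak at 33 of the 56 sites (58.9%, against 47.5% of all consensus sites), and more soft libraries at 2 sites (3.57%, against 6.98%). Those 33 include 16 sites that only D2 soft replicate 1 lacked, and the 35888 such sites in the genome include 11332. When each list was shortened to its 29789 peaks with the highest −log10 p, 33 consensus sites were left in the windows. Of these, 1 was found in both D2 stiff and neither D2 soft library (against 4.05% of the sites left in the genome), and 2 the other way (against 3.26%). On D4 there were 0 such sites in either direction, against 2.99% and 2.81%. Between the days on soft there were 0 sites in either direction, against 3.15% for D4 and 2.72% for D2. On stiff there was 1 site found in D4 and not in D2, against 2.75%, and 1 site the other way, against 2.6%. No site was in every stiff and no soft library or the reverse, against 0.279% and 0.164%, and 11 sites were in every library (33.3%, against 39.7%). Without D2 soft replicate 1, the D2 counts on the full lists were 6 and 2. D2 soft then had 1 library, and the share over all sites was not computed.

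The number of peaks per window gave 1 value per library. In the PDGFRB window there were 4 and 5 peaks in D2 soft, 6 and 6 in the D4 soft pair, 7 and 7 in the D2 stiff pair and 7 and 8 in the D4 stiff pair. All stiff libraries stood above all soft libraries, as they did for 5.28% of all gene windows, while the reverse held for 0.0%. The difference of means was 2.0 peaks (7.25 ± 0.5 against 5.25 ± 0.957, SD, n = 4 each, exact two-sided permutation p = 0.0286, the smallest that 4 against 4 libraries allow). The libraries were permuted without regard to day, and a permutation within days was not run. After Benjamini-Hochberg adjustment over all protein-coding gene windows the p was 0.541, and 0 of 19424 windows passed. With lists of equal length the PDGFRB counts were 4 and 3 in the D2 soft pair, 3 and 2 in the D4 soft pair, 3 and 4 in the D2 stiff pair and 4 and 4 in the D4 stiff pair, and the groups overlapped. With 10 kb on each side in place of 50 kb the PDGFRB groups also overlapped, with a difference of 1.25 peaks (exact permutation p = 0.114, n = 4 each). In the lists of equal length all stiff libraries stood above all soft ones in 0.609% of gene windows, and the reverse held for 0.391%.

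In the other 5 windows the stiff and soft libraries overlapped. The stiff mean was higher by 3.25 peaks at PDGFB (exact permutation p = 0.114), by 3.25 at PDGFC (p = 0.314), by 1.5 at PDGFA (p = 0.4), by 1.5 at PDGFRA (p = 0.286) and by 0.5 at PDGFD (p = 0.771), with 4 libraries in each group. The PDGFB values were 3 and 9 in the D2 soft pair, 9 and 11 in the D2 stiff pair, 9 and 9 in the D4 soft pair and 12 and 11 in the D4 stiff pair, so that D2 soft replicate 1 stood apart from the others. With lists of equal length the differences were 0.0 peaks at PDGFA, 1.25 at PDGFB, -0.25 at PDGFC, 1.0 at PDGFD and -0.75 at PDGFRA.

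**Figure D3:**
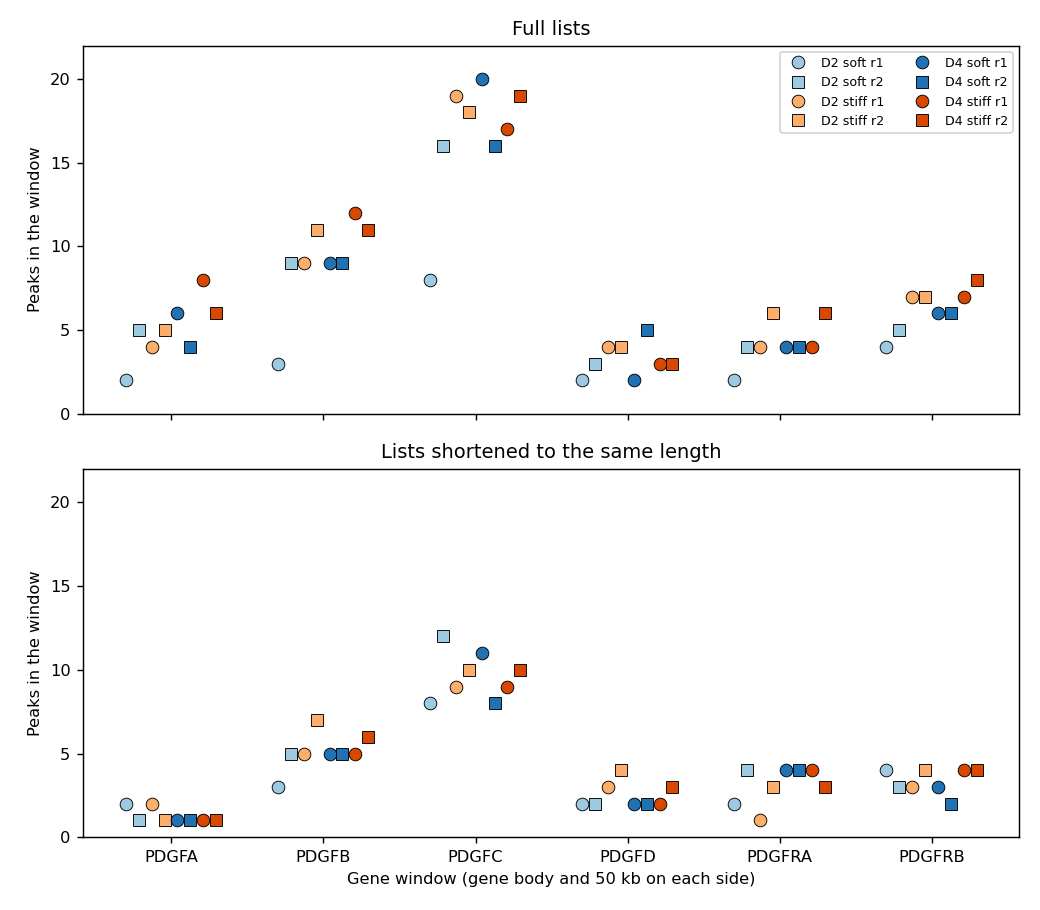
Number of peaks in each PDGF gene window (y axis) for the 8 libraries, in the full lists (top) and in lists shortened to 29789 peaks each (bottom). Circles are replicate 1 and squares replicate 2, blue is soft and orange stiff, and dark shades are D4. In the full lists the PDGFRB values of 7 to 8 on stiff lie above those of 4 to 6 on soft, and in the shortened lists the groups overlap at every gene.

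Strength was then compared where all 8 libraries held a peak, at 24246 sites in the genome and 17 of them in the PDGF windows. Within a library these sites alone were ordered by fold enrichment, and the ranks were turned into normal scores and fitted with limma. A difference of 1 is 1 SD of the ranked scores. No PDGF site was called in any of 6 contrasts at an adjusted p under 0.05. All sites called were 0.00412% on D2 (stiff against soft), 0.00825% on D4, 0.00825% in the mean of both days and 0.0% in both day contrasts and the interaction. At an unadjusted p under 0.05 there were 2 of 17 PDGF sites on D2 (against 7.65% of all), 2 on D4 (5.35%), 1 between the days on soft (7.07%), 0 between the days on stiff (5.04%), 2 in the mean of both days (7.72%) and 1 in the interaction (5.27%).

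On D2 the largest difference was at PDGFD site 7. Ranked among the 24246 sites, its percentiles were 41.7 and 59.1 in the D2 soft pair, 88.4 and 91.8 in the D2 stiff pair, 95.1 and 90.1 in the D4 soft pair and 79.5 and 96.0 in the D4 stiff pair. The score was higher on stiff than on soft by 1.28 ± 0.49 (SE, n = 2 libraries a group, limma adjusted p = 0.552) on D2. It was higher in D4 soft than in D2 soft by 1.46 ± 0.49 (SE, limma adjusted p = 0.594), the largest difference between the days on soft. Both contrasts share the D2 soft libraries. The interaction was -1.47 ± 0.69 (SE, limma adjusted p = 0.9203).

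The lowest D2 difference was at PDGFC site 13 in intron 1, at -1.19 ± 0.50 (SE, limma adjusted p = 0.579). Its percentiles were 55.1 and 18.9 in the D2 soft pair and 6.45 and 5.38 in the D2 stiff pair. The soft replicates lay farther apart than the lower of them lay from the stiff libraries.

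On D4 the largest difference was at PDGFC site 4 in intron 4, which was lower on stiff. Its percentiles were 20.9 and 21.4 in the D2 soft pair, 8.41 and 7.83 in the D2 stiff pair, 23.05 and 26.4 in the D4 soft pair and 5.19 and 2.28 in the D4 stiff pair. The difference was -1.13 ± 0.47 (SE, n = 2 libraries a group, limma adjusted p = 0.921) on D4 and -0.59 ± 0.47 (SE, limma adjusted p = 0.790) on D2. PDGFB site 6 had the highest D4 difference, 1.06 ± 0.49 (SE, limma adjusted p = 0.921), with percentiles of 57.1 and 58.4 in the D4 soft pair and 87.0 and 91.7 in the D4 stiff pair. Between the days on stiff, the largest difference was -0.97 ± 0.54 (SE, limma adjusted p = 0.926) at PDGFRB site 1, which lies in CSF1R.

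Over both days, 3 of the 17 sites had stiff and soft ranks that did not overlap, against 4.0% of all sites found in every library (1.88% with stiff above soft and 2.12% with soft above stiff). These were PDGFC site 4 and PDGFA site 12, lower in every stiff library, and PDGFC site 9, higher in every stiff library. The mean of both days was -0.86 ± 0.33 (SE, n = 4 libraries a group, limma adjusted p = 0.573) at PDGFC site 4. It was -0.77 ± 0.34 (SE, limma adjusted p = 0.615) at PDGFA site 12 and 0.59 ± 0.34 (SE, limma adjusted p = 0.708) at PDGFC site 9. The 2 PDGFC sites lie in introns of the same gene and went in opposite directions, and neither passed the threshold. The count of sites with separate ranks was chosen after the values had been seen.

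The PDGFRB promoter differed by 0.28 ± 0.48 (SE, limma adjusted p = 0.921) on D2 and by -0.42 ± 0.48 (SE, limma adjusted p = 0.968) on D4. Among the 24246 sites its percentiles were 45.1 and 30.4 in the D2 soft pair, 55.4 and 41.4 in the D2 stiff pair, 59.5 and 63.8 in the D4 soft pair and 59.2 and 31.4 in the D4 stiff pair, near the middle of the sites found in every library. Both differences were smaller than their error. The median difference over the 17 sites was 0.13 on D2 and -0.11 on D4, against -0.02 on both days over all sites, and 10 of 17 sites on D2 and 8 on D4 were higher on stiff.

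**Figure D4:**
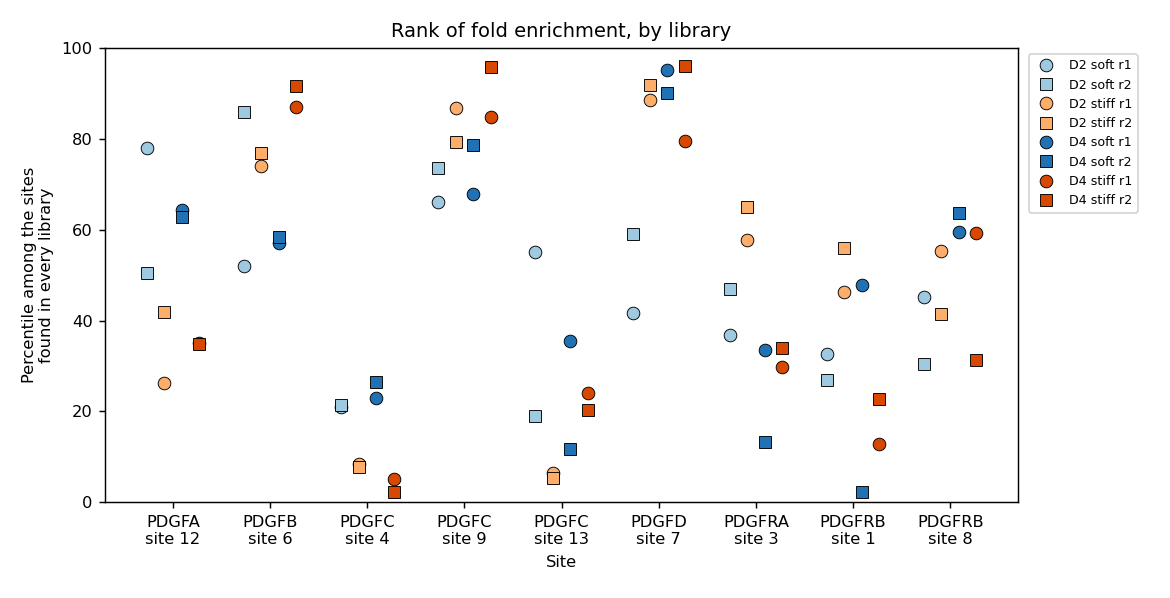
Percentile of fold enrichment among the 24246 sites found in every library (y axis) at 9 PDGF sites (x axis), with 1 point a library. Circles are replicate 1 and squares replicate 2, blue is soft and orange stiff, and dark shades are D4. PDGFC site 4 and PDGFA site 12 are lower in all stiff libraries, PDGFC site 9 is higher in all of them, and at PDGFD site 7 the D2 soft libraries lie below the other 6.

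**Figure D5:**
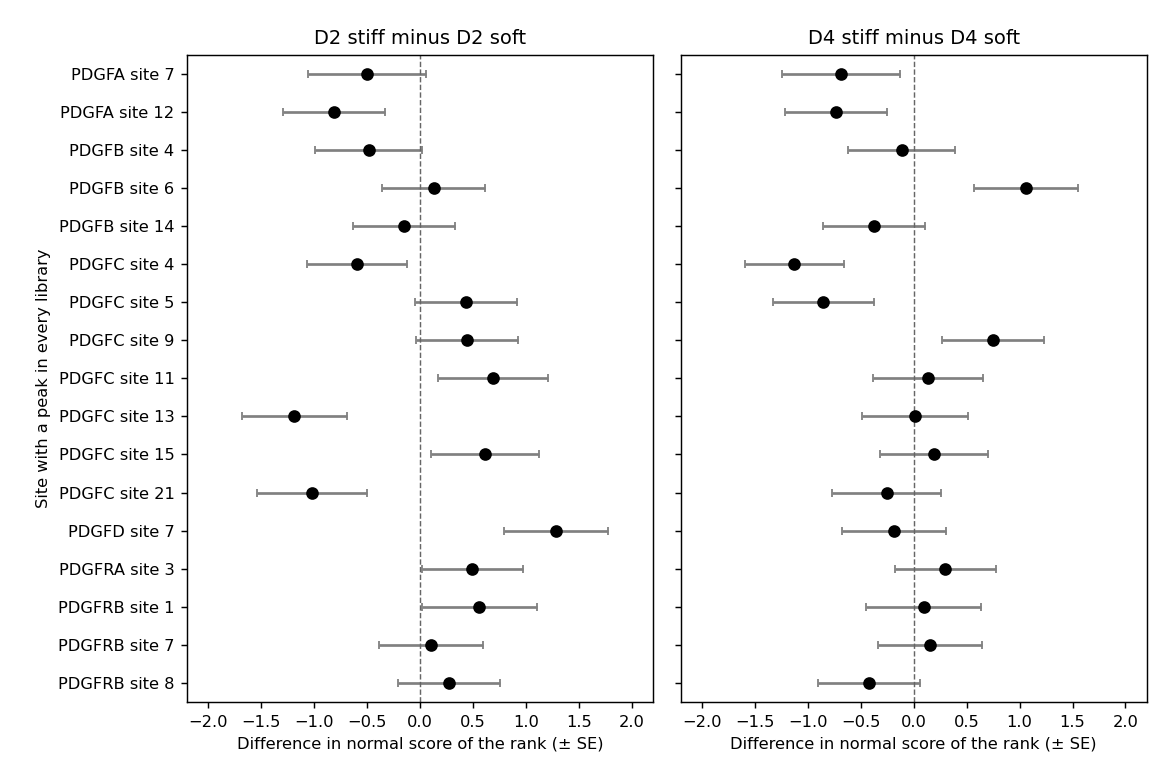
Difference in normal score of the rank, stiff minus soft, with its SE from limma, at the 17 PDGF sites found in every library on D2 (left) and D4 (right). The dashed line marks no difference. The differences run from -1.19 to 1.28 on D2 and from -1.13 to 1.06 on D4, and none passed the adjusted threshold.

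PDGF receptors signal through a set of shared adaptors, enzymes and kinases, and 30 such genes were looked up with co-receptors, ligand-processing enzymes and related receptors. A peak within 1 kb of any annotated start was present in all 8 libraries for 19 of the 30 genes, against 47.6% of 19856 protein-coding genes. These were 10 of 13 adaptors and enzymes next to the receptor (among them GRB2, SHC1, PIK3R1 and PTPN11), 4 of 7 downstream kinases and factors (among them MYC and FOS), 4 of 5 ligand-processing enzymes and co-receptors (PLAU, PLAT, NRP1 and LRP1) and 1 of 5 related receptors (FLT1). Each of the 30 genes had such a peak in at least 1 library, against 72.7% of protein-coding genes. The related receptors KIT, KDR and CSF1R had one in 7 libraries and FLT3 in 5. AKT1, a kinase downstream of PI3K, had one in 3 stiff and 0 soft libraries, and MAPK3, the kinase ERK1, in 1 soft library. Both genes were named after the values had been seen, and the share of all genes with such counts was not computed. It therefore cannot be said whether these counts are unusual. Over all consensus sites, more stiff than soft libraries had a peak at 47.5%, and more soft libraries at 6.98%. Those shares count sites rather than gene promoters, and any excess rather than 3 against 0.

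At the 19 promoters, limma called 0 genes in every contrast at an adjusted p under 0.05. At an unadjusted p under 0.05 there was 1 of 19 genes on D2 (stiff against soft, against 7.65% of all sites), 0 on D4 (5.35%) and 1 in each of the other 4 contrasts (5.04% to 7.72% of all sites). The median difference between stiff and soft was -0.01 on D2 and -0.13 on D4, against -0.02 over all sites on both days. The largest differences on D2 were at PIK3CA, the catalytic subunit of PI3K, at -1.61 ± 0.51 (SE, limma adjusted p = 0.492) and at FOS, an AP-1 subunit, at -0.82 ± 0.52 (SE, limma adjusted p = 0.741). On D4 they were at CRK, an adaptor, at -0.81 ± 0.48 (SE, limma adjusted p = 0.942) and at PIK3R1, the regulatory subunit of PI3K, at -0.65 ± 0.48 (SE, limma adjusted p = 0.946). Both had the other sign on D2, at 0.80 ± 0.48 (SE, limma adjusted p = 0.717) for CRK and 0.24 ± 0.48 (SE, limma adjusted p = 0.933) for PIK3R1. PIK3CA and FOS were at -0.13 ± 0.51 and -0.31 ± 0.52 (SE) on D4, with limma adjusted p of 0.992 and 0.984.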

How the data were processed

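Peak lists of 8 ATAC-seq libraries, from LX-2 cells on 2 matrices and 2 days with 2 replicates each, were analysed. The authors trimmed the reads with Trim Galore, mapped them to hg19 with Bowtie2 (version 2.4.1 in the submitters' processing notes, which also name bedtools 2.24.0 and Picard) and called peaks in each library with MACS2. The lowest −log10 q in the deposited lists was 1.30. Other options, including how insertion offsets were treated, are not given in the sources used here. In the deposited lists, fold enrichment is summit pileup as a ratio to local background. The −log10 p and −log10 q values deposited by the authors refer to the same background. The score column deposited by the authors was not used, and the deposited summit offset gave summit positions. These values are comparable only within a list, and reads were not used here, so no count model was fitted.

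Merging all peaks that shared 1 bp or more gave 102366 regions. Regions with peaks of at least 2 libraries were kept, and the best peak stood for a library. Genes and starts came from GENCODE release 44 on GRCh37. Ranks were fitted with limma 3.58.1 (R 4.3.3) with 4 group means, over the 24246 sites in every library, with Benjamini-Hochberg adjustment. Peaks per window were tested by exact two-sided permutation over 70 arrangements (scipy 1.17.1), without regard to day. Summit pileup and background were recovered from the deposited fold enrichment and p under the Poisson model of MACS2 for 99.997% of peaks, and depth is the most frequent background over the shortest peak. The rank fit and the recovery of pileup were tested on simulated data, and the depth estimate was not. Pileups cover counting error only.

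The study describes its replicates as biological, and p-values measure the spread between these libraries. The members, gene lists and rules were chosen with earlier results of these data known. Named were the promoter sites, the best-ranked distal site of each window, the site with the largest difference in each pairwise contrast, the sites present in 1 group only, and the 2 pathway genes with the largest differences on each day, with 2 like promoters for each promoter site in every library. Those of PDGFC site 5 are not reported here. PDGFC sites 7, 11, 13 and 23, PDGFB sites 4, 5 and 14, PDGFA site 12 and PDGFC site 9 as sites with separate stiff and soft ranks, PDGFRA site 3, the pathway genes named by presence and the CTCF motif were chosen after values were seen.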

Additional observations from a re-analysis of the deposited data

Results flagged for a closer look

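In 46 sets of 4 stiff or 4 soft libraries (6 windows and 17 sites, with both days together), 6 held a library far from the other 3 by Dixon's ratio, where chance gives about 1 in 20 for continuous values. The 3 sets of peak counts among them hold 3 tied libraries each, so that the ratio is at its maximum for any difference and that rate does not apply to them. In the soft libraries, D2 soft replicate 1 stood apart with 3 peaks in the PDGFB window, where the other 3 soft libraries had 9 each. The same library had 2 peaks in the PDGFRA window, where the other 3 had 4 each. It is also the library with the shortest list. In the stiff libraries, D4 stiff replicate 2 had 8 peaks in the PDGFRB window and the others 7 each. Among the percentiles within a list, D2 stiff replicate 1 was low at PDGFA site 12 (55.2, the other stiff libraries 66.5 to 68.3) and high at PDGFC site 11 (94.7, the others 84.3 to 85.7). D4 stiff replicate 2 was low at PDGFC site 4 (22.8, the others 31.9 to 32.7). These percentiles come from lists of unequal length. Among the 24246 sites in every library, the same libraries stood at 26.3 (the other stiff libraries 34.9 to 41.8), 88.3 (64.0 to 70.3) and 2.28 (5.19 to 8.41). Dixon's ratio was not applied to those values, so the flags may not hold on that scale.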

How the results depend on the processing

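The number of PDGF sites called by limma was 0 in all 6 contrasts under ranks of −log10 p, a replicate block, lists of equal length, a −log10 q of at least 2 and without each library in turn, and in the 4 pairwise contrasts with only the groups compared. For replicates with the same number in the title, the correlation of their deviations between groups was -0.04 to 0.08. The peak names in 5 of the 8 lists carry another number than the title. The correlation and the replicate block used the title numbers, so a batch shared under other numbers was not tested. The number of pathway promoters called was also 0 under ranks of −log10 p. In the main fit at most 2 of 24246 sites were called in any contrast, so these counts of 0 say little either way. With a −log10 q of at least 2 no presence count moved by over 1.5 times.

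Presence counts moved with list length and with single libraries. With lists of equal length, the count of sites in D2 stiff and not in D2 soft was 1, the reverse 2, D4 stiff and not D4 soft 0, D4 soft and not D2 soft 0, D4 stiff and not D2 stiff 1, and 11 sites were in every library. Requiring 50% overlap with the best peak of a site, added after seeing the data, gave 0 sites in D4 soft and not D2 soft, and 50% overlap with the site itself removed no peak. Without each library in turn, the counts were 5 to 24 for D2 stiff and not D2 soft (24 without D2 soft replicate 2, 9 and 8 without D2 stiff replicates 1 and 2), 0 to 2 for the reverse (2 without D2 soft replicate 1), 3 to 6 for D4 stiff and not D4 soft (5 and 6 without D4 soft replicates 1 and 2, 5 without D4 stiff replicate 1) and 0 to 2 for the reverse (1 and 2 without D4 soft replicates 1 and 2, 1 without D4 stiff replicate 1). They were 1 to 18 for D4 soft and not D2 soft (2 and 18 without D2 soft replicates 1 and 2, 5 and 4 without D4 soft replicates 1 and 2), 0 to 1 for the reverse (1 without D2 soft replicate 2), 1 to 5 for D4 stiff and not D2 stiff (5 without D2 stiff replicate 2, 1 without D4 stiff replicate 2) and 1 to 4 for the reverse (2 without D2 stiff replicate 1, 2 and 4 without D4 stiff replicates 1 and 2). Sites in every stiff and no soft library were 0 to 1 (1 without either D2 stiff library, D4 soft replicate 2 or D4 stiff replicate 1), and sites in every library 17 to 33 (33 without D2 soft replicate 1). A group left with 1 library needs only that 1 peak or its absence. Shares over all consensus sites were computed for the full lists and those of equal length only.

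Differences in peaks per window turned at PDGFC (-0.25) and PDGFRA (-0.75) with lists of equal length and at PDGFD (-0.50) with 10 kb on each side, where PDGFRB gave 1.25 in place of 2.0 and its groups overlapped (exact permutation p = 0.114). With lists of equal length PDGFRB gave 0.75 (exact permutation p = 0.371). Without each library in turn they were 0.750 to 2.08 at PDGFA, 1.75 to 3.83 at PDGFB, 0.917 to 4.92 at PDGFC, 0.167 to 1.17 at PDGFD, 1.0 to 1.83 at PDGFRA and 1.58 to 2.25 at PDGFRB. Without D2 soft replicate 1 they were 0.750 at PDGFA, 1.75 at PDGFB, 0.917 at PDGFC, 0.167 at PDGFD and 1.0 at PDGFRA. PDGFA also gave 0.750 without D4 stiff replicate 1, PDGFC 4.92 without D4 soft replicate 1, and PDGFD 0.167 and 1.17 without D4 soft replicates 1 and 2. The exact permutation p at PDGFRB was 0.0286 to 0.0857 without 1 library, and 0.0286 was the smallest possible. At PDGFD site 7 the D4 difference between stiff and soft turned from -0.19 to 0.28 without D4 stiff replicate 1 and was -0.65 without D4 stiff replicate 2. With a promoter distance of 2 kb, 4 genes in place of 3 had a site near the main start in at least 7 libraries. The mean percentile of PDGFC site 5 was 59.95 by −log10 p in place of 45.9. The causes of these shifts were not tested beyond the fewer peaks or libraries that each setting leaves. A missing peak shows only that none was detected, and the estimated depth was lowest in D2 soft replicate 1.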

Other observations

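Besides the 56 consensus sites, 20 regions in the PDGF windows had a peak in 1 library only. Their median percentile was 4.79 and their median summit pileup 6.5 fragments, against a median pileup of 27 at the sites found in every library. Of these regions 7 lay in the PDGFA window, which had 5 consensus sites, and 0 in the PDGFRB window, which had 9. In the PDGFRB window, 3 sites lay in the gene body of CSF1R, which encodes a receptor of the same kinase family, and were found in 8, 5 and 6 libraries.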
